A study of Mus musculus with 6 samples.

Results

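The Myc, Max and Mxd network was followed through the differentiation of C2C12 myoblasts into myotubes. It was taken as the 10 genes *Myc*, *Mycn*, *Mycl*, *Max*, *Mxd1*, *Mxi1*, *Mxd3*, *Mxd4*, *Mnt* and *Mga*, found by their symbol in the count tables, and all 10 were among the 54525 genes listed. Cells of C2C12, an immortal line of mouse myoblasts, leave the cell cycle and fuse into multinucleated myotubes. Total RNA was sequenced from 3 cultures of myoblasts in growth medium with fetal bovine serum (day 0, D0) and 3 cultures after 5 days in differentiation medium with horse serum (day 5, D5). All 6 cultures were wild type and received no other treatment, so day, medium and serum changed together and cannot be told apart. The samples' labels give the cell type as myoblasts at both days.

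The network decides whether genes with an E-box, a short DNA element read CACGTG, are switched on or off. Max is the shared partner. Paired with Myc, N-Myc (*Mycn*) or L-Myc (*Mycl*) it activates genes of growth and division, and paired with the Mxd proteins, Mnt or Mga it represses them, in the case of the Mxd proteins and Mnt by recruiting the Sin3 corepressor. A falling Myc and a rising Mxd protein are a textbook feature of cells that stop dividing and differentiate, and a lasting high Myc keeps cultured myoblasts from forming myotubes.

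Between 36555048 and 40895840 counts fell on genes in the D0 libraries, and between 25449759 and 25811300 in the D5 libraries. Values are CPM, counts per 1000000 after TMM normalization between libraries, or TPM, which also divides by the exonic length of each gene and so allows genes to be compared with each other. Differences between the days were tested by the quasi-likelihood method of edgeR over 16290 genes, and a gene with a Benjamini-Hochberg adjusted p under 0.05 was called. SE is the standard error of a log2 fold change. Between D0 and D5, 82.9% of all genes tested were called, 40.8% lower and 42.2% higher at D5. With counts left unscaled the shares were 87.8%, 67.2% and 20.6%, and under a scaling by the ERCC spike-ins, RNAs added from outside, 34.1%, 23% and 11.1%. A call on a member therefore says little by itself, and the sizes of the changes are given. Bulk RNA cannot tell fewer cells of a kind from less RNA per cell, and whether the cultures differed in RNA per cell is not known. All 8 myotube markers (*Myog*, *Mymk*, *Myh3*, *Ckm*, *Acta1*, *Tnnt3*, *Actn2* and *Casq2*) were called higher at D5, with log2 fold changes from 6.07 to 11.44. Of the 4 myoblast markers, *Myod1*, *Myf5* and *Pax7* were lower and *Des* was higher, and *Des* was no longer called without scaling or with scaling to the spike-ins. All 12 proliferation genes were lower, with a median log2 fold change of -4.19 and a summed level that went from between 2691 and 2714 CPM to between 169 and 182 CPM. Summed markers reached at most 0.0405 CPM for adipocytes (4 of 4 genes at 3 counts or fewer), 0.321 CPM for osteoblasts (2 of 4, *Ibsp* and *Alpl*), 2.97 CPM for endothelium (2 of 4, *Cdh5* and *Tie1*) and 3.31 CPM for leukocytes (2 of 4, *Ptprc* and *Adgre1*) in any library. Among the remaining markers of the last 2 lists, *Kdr* fell by 3.52 and *Cd68* by 0.50 on the log2 scale, and *Itgam* went from 0 counts in each D0 library to 10, 13 and 5 at D5. The part of such cells in the members' values was not tested.

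Of the 10 members, 9 passed the filter on low counts. Of these, 6 were lower at D5 (*Mxd3*, *Mycl*, *Myc*, *Mxd4*, *Mnt* and *Max*), 2 were higher (*Mxd1* and *Mga*) and *Mxi1* had no call. Seen by library, the same 6 had every D5 CPM below every D0 CPM and the same 2 had every D5 CPM above, a separation that 41.1% and 42.2% of all genes tested also showed. The median log2 fold change of the 9 was -0.32, against 0.0022 over all genes tested. The members stood far apart in size, from a 14.9-fold fall of *Mxd3* to a 7.18-fold rise of *Mxd1*.

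**Figure D1:**
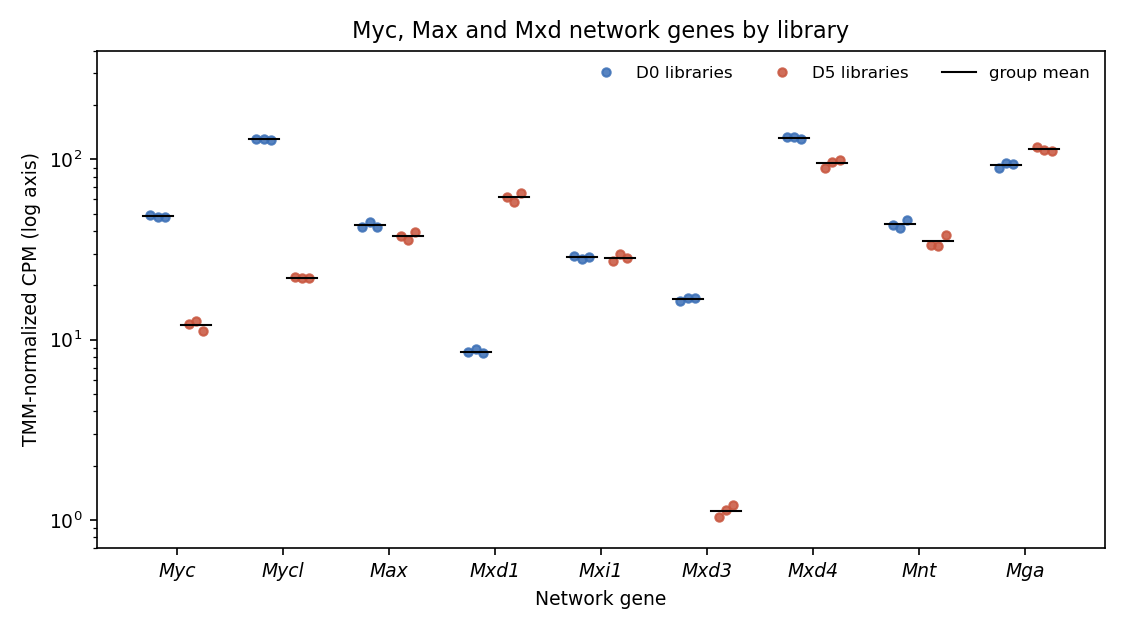
TMM-normalized CPM (log axis) of the 9 detected network genes in each of the 3 D0 (blue) and 3 D5 (red) libraries, with black bars for the group means. *Myc*, *Mycl* and *Mxd3* lie far lower at D5 and *Mxd1* far higher, while the points of *Mxi1* overlap; *Mycn*, with at most 1 count in a library, is not drawn.

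RefSeq's promoter windows for GRCm38.p6, which run from 250 bases before to 50 after a gene's start, covered 9 of the members, all but *Myc*. The E-box CACGTG, which is its own reverse complement, was sought because it is the element that the network itself reads. It was present in the windows of *Max*, *Mnt* and *Mxd4*, 3 of 9 genes or 33.3%, against 8.09% of the 27025 genes with a window and 7.15% of the 32851 windows. These 3 genes all had small falls, between -0.19 and -0.47 on the log2 scale. Their stretches are shown for the place of the element, with the E-box in capitals. Counted from RefSeq's start of the gene, it begins 3 bases before the start of *Max* and so spans it, 123 bases before that of *Mnt* and 219 before that of *Mxd4*. The GENCODE start of *Max*, which bounds the interval given for the gene, lies downstream of RefSeq's and outside the E-box. Each stretch is written 5′ to 3′ on the strand of the gene, and ends before the first annotated exon, or for *Max* with the E-box.
*Max*, chr12:76962246-76962498, minus strand: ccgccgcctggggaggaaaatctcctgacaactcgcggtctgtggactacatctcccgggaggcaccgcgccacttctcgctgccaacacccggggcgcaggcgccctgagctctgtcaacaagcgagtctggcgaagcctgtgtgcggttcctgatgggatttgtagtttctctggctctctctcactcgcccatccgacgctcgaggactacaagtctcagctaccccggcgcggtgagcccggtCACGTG
*Mnt*, chr11:74830674-74830919, plus strand: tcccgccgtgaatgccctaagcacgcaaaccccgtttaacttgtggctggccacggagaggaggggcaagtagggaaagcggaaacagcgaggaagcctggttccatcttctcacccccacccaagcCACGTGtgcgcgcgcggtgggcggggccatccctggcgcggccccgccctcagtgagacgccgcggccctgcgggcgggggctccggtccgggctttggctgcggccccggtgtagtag
*Mxd4*, chr5:34187721-34187960, minus strand: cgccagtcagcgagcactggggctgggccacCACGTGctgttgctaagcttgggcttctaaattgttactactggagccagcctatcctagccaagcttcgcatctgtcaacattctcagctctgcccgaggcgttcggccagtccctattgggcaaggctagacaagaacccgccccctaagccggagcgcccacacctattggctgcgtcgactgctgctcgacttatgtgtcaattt
The members that changed most in opposite directions, *Mxd1* and *Mxd3*, held no CACGTG in their windows. Both held the GC box GGGCGG, searched on both strands, with matches on either strand in capitals. *Mxd1* held 6 and *Mxd3* held 8 GC boxes in the whole window, overlapping ones counted. At least 1 was present in 8 of the 9 members with a window, among them *Mnt* with 4, and in 35.7% of all windows. The G and C content was 76.7% for *Mxd1* and 71.0% for *Mxd3*, against a median of 52.7% over all windows.
*Mxd1*, chr6:86669162-86669409, minus strand: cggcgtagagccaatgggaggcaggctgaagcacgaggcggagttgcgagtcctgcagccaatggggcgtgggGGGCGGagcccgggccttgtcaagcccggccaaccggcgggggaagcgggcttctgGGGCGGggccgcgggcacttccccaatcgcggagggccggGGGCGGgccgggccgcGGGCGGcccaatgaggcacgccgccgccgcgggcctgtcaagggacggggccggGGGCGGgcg
*Mxd3*, chr13:55329824-55329981, minus strand: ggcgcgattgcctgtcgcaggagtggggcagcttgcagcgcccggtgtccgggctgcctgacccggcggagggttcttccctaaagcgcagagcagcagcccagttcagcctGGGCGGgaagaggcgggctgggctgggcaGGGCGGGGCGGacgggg
These are matches of letters and say nothing about binding. An element of muscle regulatory factors, CAGCTG, was in the window of *Mga* only (16.3% of all windows held it). The E2F-like strings TTTCGCGC and TTTGGCGC were in that of *Mycn* only (0.323% and 0.514% of all windows), and TTTCCCGC was in none of the members' windows (1.07% of all windows).

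The activators *Myc* and *Mycl* lost most of their RNA. *Myc* (ENSMUSG00000022346.15, chromosome 15 of GRCm38 from 61985391 to 61990374, plus strand) encodes c-Myc, the broadly used member of the family. It had 1840, 2022 and 1917 counts in D0 replicates 1, 2 and 3, or 49.1, 48.1 and 47.6 CPM, and 305, 312 and 279 counts at D5, or 12.1, 12.7 and 11.2 CPM. The D5 libraries lay close together and far below all D0 libraries. The mean fell from 48.2 ± 0.772 CPM to 11.997 ± 0.732 CPM (mean ± SD, n = 3 each), to 24.9% of the D0 level, or -2.01 on the log2 scale (SE 0.055, edgeR adjusted p = 1.44e-24).

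*Mycl* (ENSMUSG00000028654.13, chromosome 4 from 122995652 to 123002485, plus strand) encodes L-Myc, a family member best known from neural, lung and dendritic cells. Its levels were 129, 130 and 129 CPM at D0 and 22.3, 22.0 and 22.0 CPM at D5. The libraries of each day lay close together, and the groups were wide apart. *Mycl* fell from 129 ± 0.786 CPM to 22.1 ± 0.199 CPM (mean ± SD, n = 3 each), 5.85-fold, or -2.55 on the log2 scale (SE 0.041, edgeR adjusted p = 1.84e-30). Per exonic length it was the most abundant member of the whole network in myoblasts, with 111 ± 1.75 TPM against 61.4 ± 0.0358 TPM for *Myc* (mean ± SD, n = 3 each). In every D0 library *Mycl* stood above *Myc*, and it took 64.3% ± 0.374 of the summed TPM of the Myc genes there and 55.4% ± 1.49 at D5 (mean ± SD, n = 3 each). The libraries of the groups did not overlap in that share.

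*Mycn* (ENSMUSG00000037169.15, chromosome 12 from 12936093 to 12941914) encodes N-Myc, which is prominent in embryonic tissue and neuroblastoma. It had 0, 0 and 1 counts at D0 and 0 counts in each D5 library, under the limit of 3 counts below which a gene was treated as not detected. That limit corresponds to 0.0713 to 0.0800 CPM in the D0 libraries and 0.119 to 0.122 CPM at D5, and it covers counting error only. *Mycn* was thus not detectable at this depth on either day and was not tested. No 50-base stretch of the transcripts of any member occurs in those of another, so reads of the Myc genes, or of the Mxd genes, were not shared in this way.

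*Max* (ENSMUSG00000059436.13, chromosome 12 from 76937269 to 76962201, minus strand), the partner of all the others, changed little. It had 42.2, 44.7 and 42.1 CPM at D0 and 37.3, 35.7 and 39.8 CPM at D5. All D5 libraries were lower, by a margin of the size of the spread within the groups. The means were 43.0 ± 1.45 CPM and 37.6 ± 2.05 CPM (mean ± SD, n = 3 each), or -0.19 on the log2 scale (SE 0.047, edgeR adjusted p = 0.000442). With scaling to the ERCC spike-ins the fall was larger, at -0.79, but no longer called (edgeR adjusted p = 0.24).

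The Mxd genes, which encode the dedicated antagonists of Myc, went in opposite directions, and the strongest contrast was between *Mxd1* and *Mxd3*, whose promoters are printed above. *Mxd1* (ENSMUSG00000001156.9, chromosome 6 from 86647042 to 86669161, minus strand) encodes Mad1, a protein known to appear as many cell types differentiate. It had 318, 371 and 341 counts at D0, or 8.48, 8.82 and 8.46 CPM, and 1547, 1438 and 1626 counts at D5, or 61.5, 58.3 and 65.3 CPM. Every D5 library held more reads of *Mxd1* than every D0 library even before normalization, although the D5 libraries were the smaller ones. The level rose from 8.59 ± 0.200 CPM to 61.7 ± 3.50 CPM (mean ± SD, n = 3 each), 7.18-fold, or 2.84 on the log2 scale (SE 0.056, edgeR adjusted p = 2.27e-28).

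*Mxd3* (ENSMUSG00000021485.14, chromosome 13 from 55325168 to 55329823, minus strand) is the family member known to be expressed in dividing cells during S phase. Its counts were 617, 716 and 688 at D0 and 26, 28 and 30 at D5, which is 16.5, 17.0 and 17.1 CPM against 1.03, 1.14 and 1.205 CPM. *Mxd3* was nearly gone from all D5 libraries. It dropped from 16.8 ± 0.340 CPM to 1.12 ± 0.0858 CPM (mean ± SD, n = 3 each), to 6.69% of the D0 level, or -3.90 on the log2 scale (SE 0.11, edgeR adjusted p = 3.81e-24). This was the largest change among the members, and its size lay within the range of the 12 proliferation genes, whose log2 fold changes ran from -5.52 for *Plk1* to -1.87 for *Pcna*. Its relation to the number of dividing cells was not tested. Of its exonic length 4.43% is shared with *Prelid1* on the other strand, and the corresponding shares were 6.06% for *Mxd4* (with *Gm42846*), 2.84% for *Mxi1* (with *Gm10197*) and 0% for the other members. Since the strand setting of the counts is not known, reads in these stretches cannot be assigned to one strand.

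*Mxd4* (ENSMUSG00000037235.13, chromosome 5 from 34173883 to 34187720, minus strand) encodes Mad4, which is linked to resting and differentiated cells. Its levels were 133, 132 and 129 CPM at D0 and 89.0, 96.9 and 99.2 CPM at D5. All D5 libraries were below all D0 libraries. The fall was moderate, from 132 ± 1.92 CPM to 95.1 ± 5.36 CPM (mean ± SD, n = 3 each), or -0.47 on the log2 scale (SE 0.038, edgeR adjusted p = 1.38e-12) that was -1.04 and not called with spike-in scaling (edgeR adjusted p = 0.109). *Mxi1* (ENSMUSG00000025025.13, chromosome 19 from 53310518 to 53375810, plus strand), the remaining Mxd gene, had 29.1, 27.9 and 28.8 CPM at D0 and 27.4, 29.9 and 28.2 CPM at D5. These groups overlapped. The means of 28.6 ± 0.627 CPM and 28.5 ± 1.26 CPM (mean ± SD, n = 3 each) differed by less than the spread between replicates, or -0.0058 on the log2 scale (SE 0.050, edgeR adjusted p = 0.918).

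The larger repressors moved little. *Mnt* (ENSMUSG00000000282.12, chromosome 11 from 74830920 to 74845725, plus strand), a Max partner present in dividing and resting cells alike, had 43.5, 41.8 and 45.9 CPM at D0 and 33.6, 33.2 and 38.3 CPM at D5. It was lower in all D5 libraries, or -0.32 on the log2 scale (SE 0.052, edgeR adjusted p = 1.76e-06), which became -0.92 without a call under spike-in scaling (edgeR adjusted p = 0.161). *Mga* (ENSMUSG00000033943.15, chromosome 2 from 119897228 to 119969581, plus strand) encodes a very large protein with a T-box beside its Max-binding part, and it serves in the PRC1.6 Polycomb complex. It had 89.0, 95.8 and 93.9 CPM at D0 and 116, 113 and 111 CPM at D5. All D5 libraries were above all D0 libraries after TMM normalization, and the log2 fold change was 0.29 (SE 0.037, edgeR adjusted p = 2.61e-08), but it was -0.40 in counts that were not scaled and -0.28 with spike-in scaling. Those 2 scalings moved the median of all genes tested to -0.68 and -0.58, and relative to that median *Mga* was at 0.28 and 0.30.

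**Figure D2:**
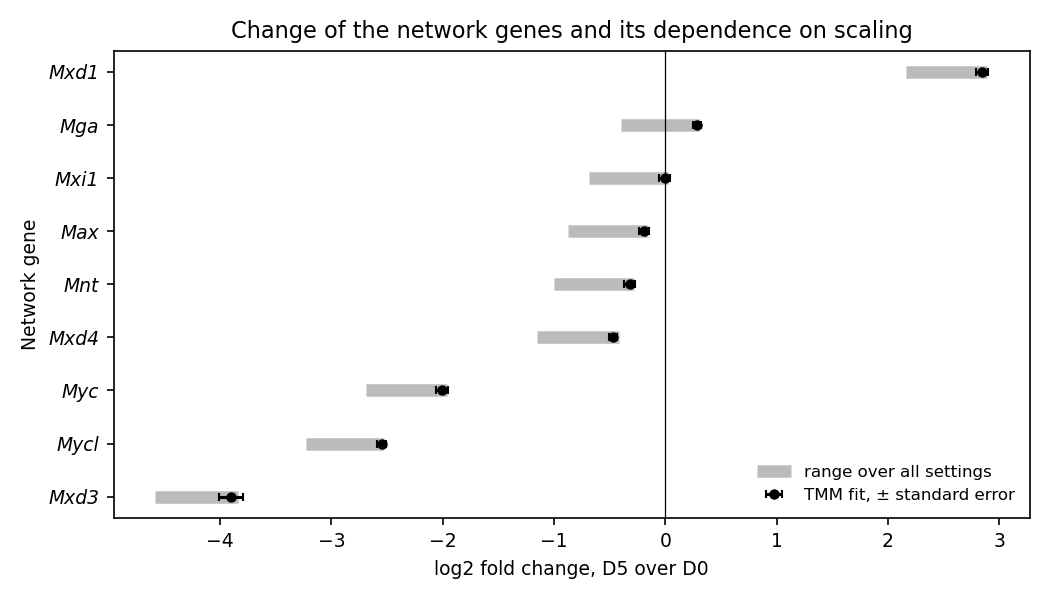
Log2 fold change, D5 over D0, of the 9 tested network genes (points, with bars of 1 standard error) and the range over all settings tried (grey). The grey bars reach to the left because the unscaled and spike-in scaled fits shift all genes down; only those of *Mga* and *Mxi1* cross 0.

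Relative to the median of all genes, the values of the members hardly depended on the setting. A change of scaling shifts all genes nearly alike, so agreement among the scalings follows from subtracting the median. Only the other settings, such as the filters and the left-out libraries, could have moved these values. *Myc* stayed between -2.04 and -1.95, *Mycl* between -2.57 and -2.54, *Max* between -0.23 and -0.15, *Mxd3* between -3.95 and -3.84 and *Mxd1* between 2.81 and 2.89 over all settings tried, each left-out library included. *Mxd4* stayed between -0.50 and -0.42, *Mnt* between -0.38 and -0.27, *Mga* between 0.24 and 0.31 and *Mxi1* between -0.042 and 0.022.

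Set side by side per exonic length, the order of the members was turned over. In myoblasts it ran *Mycl* (111 TPM), *Myc* (61.4), *Mxd4* (53.7), *Max* (41.3), *Mnt* (32.7), *Mxd3* (24.6), *Mga* (21.0), *Mxi1* (14.5) and *Mxd1* (4.202 TPM), and no neighbours in this order overlapped between libraries. In myotubes it was *Mxd4* (34.8 TPM), *Max* (32.4), *Mxd1* (27.1), *Mnt* (23.5), *Mga* (22.9), *Mycl* (17.0), *Myc* (13.7), *Mxi1* (12.96) and *Mxd3* (1.47 TPM). There the libraries of *Mxd4* and *Max*, of *Mxd1* and *Mnt*, of *Mnt* and *Mga*, and of *Myc* and *Mxi1* overlapped. With the length of the longest transcript in place of all exons, *Myc* (56.3 TPM) stood behind *Mxd4* (77.6 TPM) and *Max* (60.4 TPM) at D0, and *Mycl* was still in front with 101 TPM. At D5 it also put *Mga* before *Mnt* and *Mxi1* before *Myc*.

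Shares within a library do not depend on how libraries are scaled to each other. *Myc*, *Mycl* and *Mycn* made up 47.6%, 47.2% and 47.0% of the summed TPM of the network in the D0 libraries and 17.0%, 17.1% and 15.5% in the D5 libraries. *Max* went from 11.3% ± 0.338 to 17.4% ± 0.584 of it, and the repressors from 41.4% ± 0.417 to 66.0% ± 0.594 (mean ± SD, n = 3 each). For each of these shares the groups did not overlap. The network as a whole took 364 ± 5.96 TPM at D0 and 186 ± 5.04 TPM at D5 (mean ± SD, n = 3 each), and most of that loss was in the Myc genes, whose sum went from 172 ± 1.72 TPM to 30.7 ± 1.11 TPM. Unlike the shares, such sums depend on how TPM scales each library. *Mxi1*, for instance, was at -0.0058 on the log2 scale after TMM normalization but had 14.5 TPM at D0 and 12.96 TPM at D5. No test was made on these sums, since the members were chosen with results known.

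In TPM relative to *Max*, the Myc genes went from 4.27, 4.02 and 4.22 in the D0 libraries to 0.964, 1.02 and 0.866 at D5. With longest transcripts in place of all exons the ratio was 2.60 ± 0.0812 at D0 and 0.593 ± 0.0484 at D5 (mean ± SD, n = 3 each). Its level thus depends on the length used, and it is not a number of transcripts per *Max*. The 4 Mxd genes together, in contrast, stood at 2.40, 2.27 and 2.38 per *Max* at D0 and at 2.28, 2.47 and 2.31 at D5. These overlapped, so the summed Mxd RNA kept pace with *Max* in TPM, although in plain counts without length the ratio went from 4.32 ± 0.137 to 4.97 ± 0.224 (mean ± SD, n = 3 each) without overlap. The sum hid an exchange of members. *Mxd3* took 25.4% ± 0.574 of the Mxd TPM in myoblasts and 1.93% ± 0.0742 in myotubes, while *Mxd1* took 4.33% ± 0.0880 and 35.5% ± 1.68 (mean ± SD, n = 3 each). *Mxd4* was the most abundant Mxd gene on both days, with 55.3% ± 0.563 and then 45.6% ± 1.12 (mean ± SD, n = 3 each). The ratio of *Mxd1* to *Myc* in TPM was 0.0664, 0.0705 and 0.0683 at D0 and 1.95, 1.77 and 2.24 at D5, so *Mxd1* passed *Myc* in every myotube library.

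**Figure D3:**
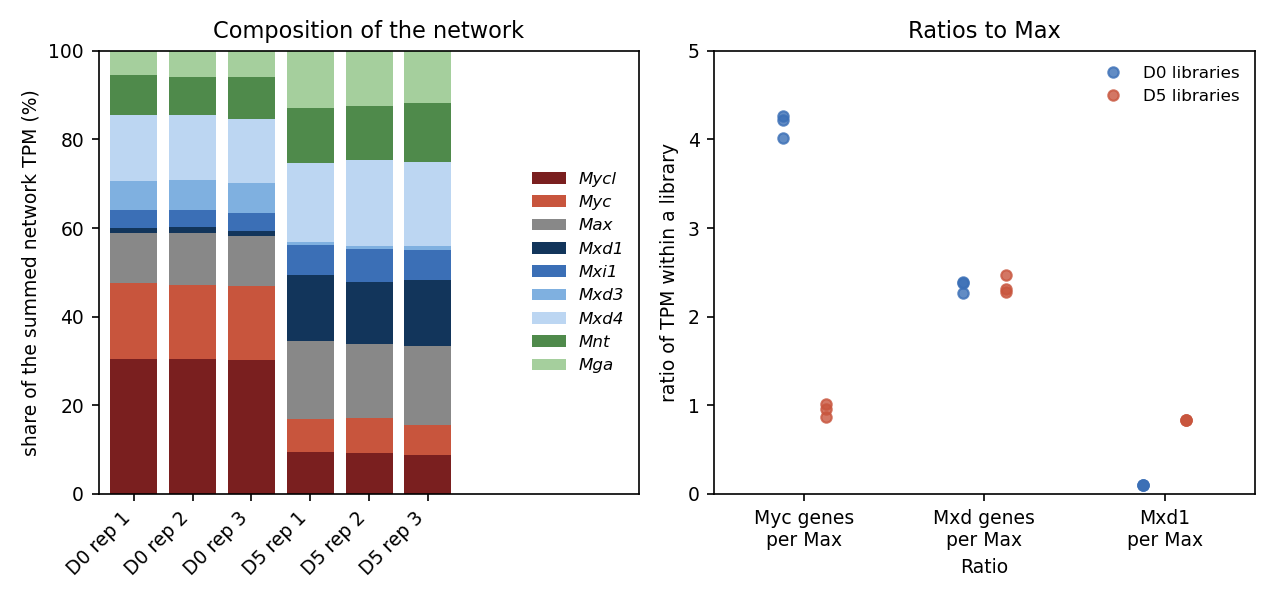
Left, share (%) of each gene in the summed TPM of the network in each library; right, ratios of TPM within a library to *Max* for the Myc genes, the 4 Mxd genes and *Mxd1* alone, 1 point per library (blue D0, red D5). The Myc genes shrink from between 47.0% and 47.6% to between 15.5% and 17.1% of the network, and the Mxd sum per *Max* overlaps between the groups while *Mxd1* per *Max* goes from 0.102 to 0.835 on average. TPM here use summed exons, and with longest transcripts the means of *Mxd1* per *Max* are 0.0832 and 0.683.

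The genes around the network were described by lists, each by its counts and its median. The counts are read against the 40.8% lower and 42.2% higher among all genes tested, whose median was 0.0022. Of 9 coactivators and partners through which Myc works, 8 were lower (88.9%, against 40.8% of all genes tested), none was higher, and the median log2 fold change was -0.54. With spike-in scaling 2 of the 9 were called lower, a share near the 23% of all genes tested. *Ruvbl2* (-1.24) and *Actl6a* (-1.15), subunits of chromatin complexes, fell furthest, followed by *Trrap* (-0.67), the large scaffold that carries histone acetyltransferases to Myc, and *Ep400* (-0.57), a remodelling ATPase. *Zbtb17*, which encodes the Myc partner Miz-1, was at -0.021 and not called (edgeR adjusted p = 0.698). In the Sin3 corepressor that Mxd proteins and Mnt recruit, 5 of 10 genes were lower (50%, against 40.8%) and 4 higher (40%, against 42.2%), shares near those of all genes tested. The median was -0.12, and the count of higher genes was 2 without D0 replicate 1 or without D5 replicate 3. *Hdac1* (-0.99) and *Hdac2* (-0.94), its histone deacetylases, and the scaffold *Sin3a* (-0.63) fell, and the paralogous scaffold *Sin3b* rose after TMM normalization (0.42), but was at -0.27 unscaled and -0.14 with spike-in scaling.

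Of the 9 genes of the PRC1.6 complex in which Mga and Max act, 6 were lower (66.7%, against 40.8%) and 3 higher (33.3%, against 42.2%), with a median of -0.28. With spike-in scaling 1 of the 9 was called lower, a share below the 23% of all genes tested. *Rnf2*, a ubiquitin ligase subunit counted among the higher genes, was at 0.12 with overlapping groups and kept that call under few of the settings: it was lost under DESeq2, other scalings, no filter and without any 1 of 5 of the 6 libraries, D5 replicate 3 being the exception. *Cbx3* (-1.05), a heterochromatin protein, *Tfdp1* (-0.64), the partner of E2F factors, and *L3mbtl2* (-0.62) fell. *E2f6*, the repressive E2F of the complex, rose by 0.70 on the log2 scale, which was 0.022 unscaled and 0.13 with spike-in scaling and not called in either. Among 12 genes that set the stability of the Myc protein, 8 were lower (66.7%, against 40.8%), 3 higher (25%, against 42.2%) and the median was -0.30. The list pools genes that protect Myc with genes that promote its decay, so these values have no direction for Myc stability. The largest falls were those of *Aurka* (-5.24), a mitotic kinase, *Cip2a* (-4.43), an inhibitor of the phosphatase that marks Myc for decay, and *Skp2* (-2.0), a ubiquitin ligase subunit of the cell cycle. These falls lay within the range of the proliferation genes, and the part of the loss of dividing cells in them was not tested. *Usp28*, which encodes a deubiquitinase of Myc, rose from 27.4 ± 1.12 CPM to 122 ± 0.993 CPM (mean ± SD, n = 3 each), or 2.16 on the log2 scale (edgeR adjusted p = 7.09e-29). *Fbxw7*, the ubiquitin ligase subunit that targets Myc for destruction and is opposed by Usp28, was also called higher, at 1.01, but not with spike-in scaling (0.45).

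Genes widely described as targets of Myc were mostly lower. Of 23 genes of the nucleolus and of ribosome assembly, 17 were lower (73.9%, against 40.8% of all genes tested), 3 were higher and 3 had no call, with a median log2 fold change of -0.56. *Nop56* (-1.34), a core protein of small nucleolar RNPs, *Utp20* (-1.30), *Ppan* (-1.20) and the abundant nucleolar protein *Npm1* (-1.15) fell most. The genes called higher were *Nip7*, *Nop16* and *Bop1*, at 0.35, 0.26 and 0.23, and all had negative values unscaled and with spike-in scaling. Of 24 targets in growth and metabolism, 19 were lower (79.2%, against 40.8%), 4 higher and 1 had no call, with a median of -0.65. The largest falls here were those of the cell cycle genes *Cdk4* (-2.0), *Ccnd2* (-1.96) and *Cdc25a* (-1.83) and of *Srm* (-1.79), the spermidine synthase. The genes called higher were *Tert* (1.23), the catalytic subunit of telomerase, *Tfrc* (1.19), the transferrin receptor, *Hk2* (0.77), a hexokinase, and *Odc1* (0.11), which makes putrescine. The level of *Tert* was low and varied at D0, with 11, 34 and 26 counts there and 30, 36 and 38 at D5 (SE 0.27). *Tert* and *Tfrc* stayed called higher unscaled, *Odc1* was negative unscaled and with spike-in scaling, and none of the 4 was called higher with spike-in scaling. *Ldha*, lactate dehydrogenase A, stood at 508 ± 12.7 CPM and 510 ± 5.86 CPM (mean ± SD, n = 3 each), levels that overlapped between the days. These lists overlap in function with the proliferation genes, and the part of the loss of dividing cells in them was not tested. In their promoter windows CACGTG was present in 8 of 21 growth and metabolism targets (38.1%) and in 4 of 19 nucleolar ones (21.1%). Among all genes with a window the share was 8.09%. Both lists were made of described Myc targets, and whether Myc acted through these elements was not tested.

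Of 7 genes that Myc is described to repress 6 were tested, and 3 were higher (50%, against 42.2%) and 2 lower (33.3%, against 40.8%), shares near those of all genes tested. The median of 1.38 fell between *Cdkn1b* (-0.042, no call) and *Ndrg2* (2.80), so no gene of the list stood near it. *Cdkn1a*, which encodes the cell cycle inhibitor p21, rose from 107 ± 3.29 CPM to 2005 ± 54.3 CPM (mean ± SD, n = 3 each), 18.7-fold, and *Gadd45a*, a growth arrest gene, rose 8.75-fold. *Ndrg2* rose 6.95-fold, whereas its relative *Ndrg1* fell 3.59-fold and *Clu* fell 2.58-fold. *Cdkn2b* had 0 counts in every library. Of the Mlx branch and other factors of the same fold that bind E-boxes, 10 were tested, with 7 higher (70%, against 42.2%), 2 lower (20%, against 40.8%) and a median of 0.46 that was -0.22 unscaled and -0.11 with spike-in scaling. With spike-in scaling 1 of the 10 was called higher, a share near the 11.1% of all genes tested. Of the branch itself, *Mlx* rose by 0.67 and *Mlxip* by 0.53 on the log2 scale. Unscaled they were at -0.009 and -0.15, and neither was called with spike-in scaling. *Mlxipl* and *Tfec*, with at most 1 count in a library, were not tested. *Tfeb* (1.84) and *Mitf* (1.41), related regulators of lysosome genes and cell identity, and *Srebf1* (1.35), a regulator of lipid synthesis, rose most, and *Tfap4*, itself a known Myc target, fell by 0.73 on the log2 scale. Relative to the median of all genes, the sign of the median of every list named here was the same under TMM normalization, total counts, no scaling and spike-in scaling. These settings differ only in scaling, which shifts all genes nearly alike. The agreement therefore follows from subtracting the median and is no separate evidence.

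**Figure D4:**
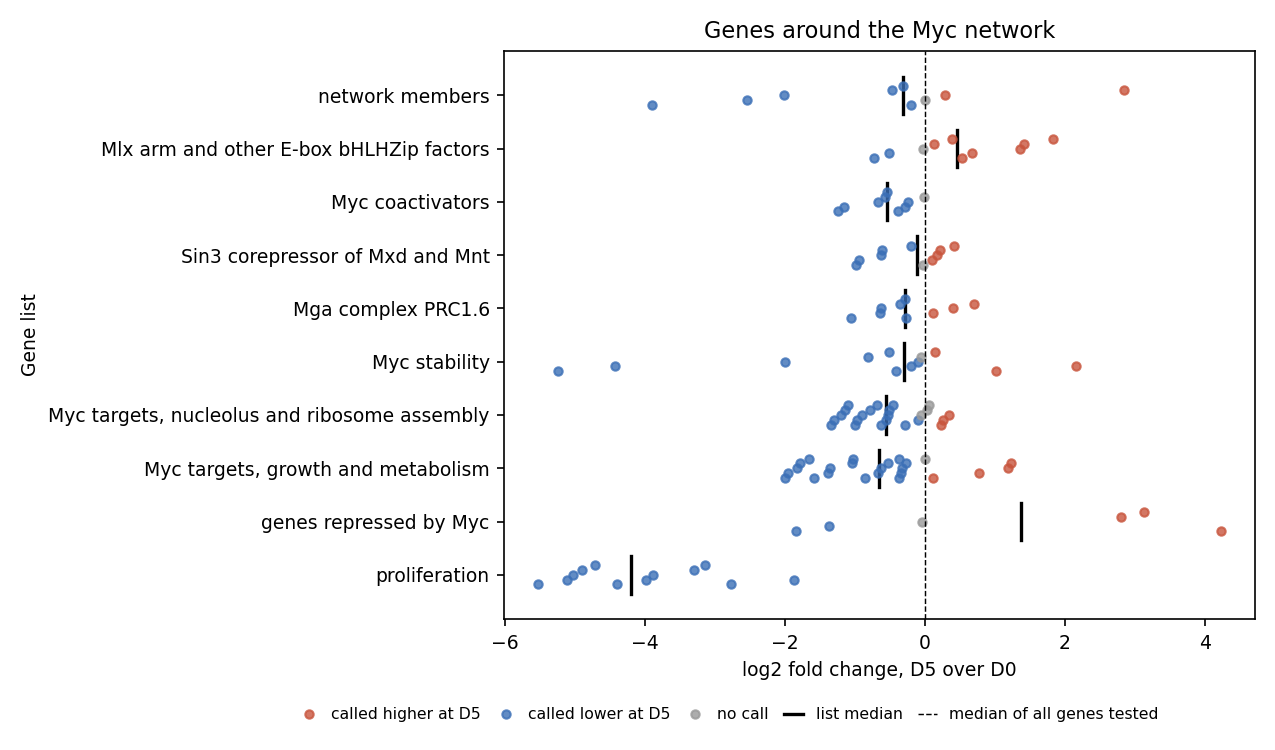
Log2 fold change, D5 over D0, of each tested gene (points) in the network and in the lists around it, coloured by edgeR's call, with the median of each list (black bar) and of all genes tested (dashed line at 0.0022). Both lists of Myc targets and the coactivators lie mostly to the left, the Mlx branch and its relatives mostly to the right, and the proliferation genes farthest to the left with a median of -4.19.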

How the data were processed

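RNA was sequenced from 3 C2C12 cultures at D0 and 3 at D5, grouped by the samples' titles. The authors aligned reads to GRCm38 (mm10), counted them per gene with featureCounts and deposited raw counts, 1 library per file. The labels name Tophat2 and the paper HISAT2 as the aligner, and the annotation release, strand setting and handling of multi-mapped reads are not given in the sources used here. The 92 ERCC spike-in rows (0.720% to 2.09% of a library) and an unnamed row holding the column total were left out.

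edgeR 4.0.16 (R 4.3.3) gave TMM factors, CPM and, after filterByExpr, the quasi-likelihood test. The SE of a log2 fold change is its size over √F. TPM used the summed exons of GENCODE vM21 (GRCm38), in which 99.9% of gene identifiers were found without their version. P-values measure the spread between these cultures, and nothing states that they were independent differentiations. With 3 libraries against 3, the smallest two-sided p of an exact permutation test is 0.1, so none was used. Replicates differed beyond sampling noise (chi-square at least 2.28 times its degrees of freedom). Named are all members, the neighbour *Pvt1*, up to 4 genes a list with the largest called changes, genes without a call or singled out after their values were seen (*Zbtb17*, *Ldha*, *Cdkn2b*, *Cdkn1b*, *Clu*, *Mlx*, *Mlxip*, *Mlxipl*, *Tfec*, *Sin3b*, *Fbxw7*, *E2f6*, *Tfap4*, *Nip7*, *Nop16*, *Bop1*, *Rnf2*, *Tert*, *Tfrc*, *Hk2*, *Odc1*, *Kdr*, *Cd68*, *Itgam*), and the genes nearest in profile. The members and lists were chosen with earlier results of these data known. The alternatives included DESeq2 1.42.0. The scripts were tested on simulated data.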

Additional observations from a re-analysis of the deposited data

How the results depend on the processing

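Of 126 refits of the members' fold changes, 117 kept direction and side of the threshold. With scaling to the ERCC spike-ins, whose share of the counts differed widely between D5 libraries, *Max* (-0.79), *Mxd4* (-1.04) and *Mnt* (-0.92) lost their calls and *Mga* turned to -0.28. Without scaling *Mga* (-0.40) and *Mxi1* (-0.69) were both called lower, which made 8 members lower, since the D0 libraries were deeper. *Mxi1*, near 0, was at 0.0012 with DESeq2 and between -0.036 and 0.025 with 1 library left out. Apart from depth, the cause was not tested.

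All genes called lower were 10953 unscaled and 3747 with spike-ins, and those called higher 3353 and 1813, so that the lower share of calls went from 49.2% to 76.6% and 67.4%. Members called lower were 3 with spike-ins, and called higher 1 in both. With spike-ins, 23% of all genes tested were called lower and 11.1% higher. Genes called lower were then 1 of 10 in the Mlx branch and relatives, 2 of 9 coactivators and partners, 2 of 10 for Sin3 and 1 of 9 for PRC1.6. These shares were near or below that of all genes tested. For stability it was 4 of 12, for nucleolar targets 10 of 23 and for growth targets 11 of 24. Genes called higher were 1 in the Mlx branch and relatives, 0 for Sin3, 0 for PRC1.6, 1 for stability, 0 nucleolar and 0 growth targets. Unscaled, 67.2% of all genes tested were called lower and 20.6% higher. There 6 of the Mlx branch and relatives and 10 of Sin3 were lower, and 3 of the former, 0 of Sin3, 0 of PRC1.6, 0 nucleolar and 2 growth targets were higher. Sin3 genes called higher were 2 with total counts and without a filter, and 2 to 4 with 1 library left out, 2 without D0 replicate 1 or D5 replicate 3.

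With the replicate number as a block 6664 genes were lower and 6894 higher, and no call on a member changed. Same-numbered libraries had correlations of deviations of 0.033, 0.064 and 0.028, and each correlated best with its own number, a hint from the data only.

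With longest transcripts, and with counts without length, the Myc genes had 40.7% and 32.7% of the network at D0 and 13.2% and 8.39% at D5, *Max* 15.6% and 7.92%, then 22.3% and 9.24%, and the repressors 43.7% and 59.4%, then 64.5% and 82.4%. *Mxd1* had 4.03% and 4.63% of the Mxd genes, then 33.0% and 33.1%. *Mycl* had 72.8% and then 64.8% of the Myc genes in counts. Depth limits *Mycn* alone among the members.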

Other observations

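*Pvt1*, the long noncoding gene beside *Myc*, also fell, from 17.5 ± 0.191 CPM to 9.13 ± 0.400 CPM (mean ± SD, n = 3 each), or -0.94 on the log2 scale (edgeR adjusted p = 9.91e-14), a smaller fall than that of *Myc* at -2.01.

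The genes nearest to a member in profile were sought among 11316 tested genes with a mean of at least 100 counts, by the root mean square difference of log2 CPM centred on each gene's mean over the 6 libraries. For *Myc* these were *Eif2ak3*, an endoplasmic reticulum stress kinase gene (difference 0.027, log2 fold change -2.02), and *Hmga1*, a chromatin protein gene of dividing cells (0.028, log2 fold change -2.03). *Nab1* (0.023) and *Impa2* (0.023) were nearest to *Max*. The profile of *Mxd1* was nearest to those of *Col3a1*, a fibrillar collagen (0.051, log2 fold change 2.77), and *Plekhg5* (0.055, log2 fold change 2.87). The 6 libraries fall into 2 groups, so the likeness is mainly one of the size of the change between them.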
